A study of Mus musculus with 17 samples.

Results

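The genes described here mark oligodendrocyte precursor cells or, in the case of Enpp6, precursors that begin to differentiate. Precursors are the dividing glial cells of the adult brain that give rise to myelinating oligodendrocytes. The list holds 10 genes chosen by name: Olig1, Olig2, Pdgfra, Ptprz1, Cspg4, Vcan, Bcan, Matn4, Enpp6 and Lhfpl3. All 10 were found among the 21887 protein-coding genes of the RefSeq table for mouse assembly GRCm38.p6, which build mm10 denotes. Every deposited H3K27ac peak that overlapped the span of a gene or its 20 kb flanks, called its window here, was taken. The 10 windows did not share a peak, and together they held 185 of the 183678 peaks of the list.

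The tissue was mouse hypothalamus, and the labels give no age, sex, strain or treatment. For H3K27ac, 3 bulk CUT&Tag samples carry the word biological replicate in their titles, and a single peak list stands for them. Paired-Tag, which profiles histone modifications jointly with RNA in nuclei, added 7 libraries of DNA and 7 of RNA, not analysed here. H3K27ac is acetylation of lysine 27 of histone H3, and CUT&Tag maps it by tethering the transposase Tn5 to the antibody. The list gives no value per replicate and no read count, so the depth is unknown, no spread between samples can be given and no comparison was tested. Bulk tissue mixes all cell types, so fewer cells of a type and less acetylation per cell cannot be told apart.

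As background, H3K27ac lies at active promoters and enhancers. Precursor cells are specified by the basic helix-loop-helix factors Olig1 and Olig2, and they divide in response to platelet-derived growth factor through the receptor Pdgfra. Their surface and surrounding matrix are rich in chondroitin sulfate proteoglycans. Several of these genes are also used by other cells: Pdgfra and Vcan by fibroblasts, Cspg4 by pericytes, and Bcan and Ptprz1 by astrocytes.

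The RefSeq promoter table for GRCm38.p6 gave a start for 9 of the 10 genes, with 2 starts for Matn4, and had no match for Olig1. The 250 bases before the start are shown for 5 genes, chosen by their start peaks. Whether the sequence bears on those peaks was not tested. Ptprz1 and Lhfpl3 had the strongest start peaks, Olig2 and Cspg4 had peaks of low fold at starts rich in CG, and Pdgfra had no peak at its start. Each run is written 5′ to 3′ on the strand of the gene, which is the plus strand for all 5, and capitals mark each CG, the site of most DNA methylation. In build GRCm38.p6 the runs lie at chr6:22875252-22875501 for Ptprz1, chr5:22745804-22746053 for Lhfpl3, chr16:91225300-91225549 for Olig2, chr9:56864854-56865103 for Cspg4 and chr5:75152001-75152250 for Pdgfra.
Ptprz1: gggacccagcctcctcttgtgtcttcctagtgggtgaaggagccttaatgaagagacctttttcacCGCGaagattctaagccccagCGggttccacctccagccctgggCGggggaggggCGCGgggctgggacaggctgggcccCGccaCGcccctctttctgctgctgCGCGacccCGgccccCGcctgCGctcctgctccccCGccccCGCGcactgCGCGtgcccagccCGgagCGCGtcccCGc
Lhfpl3: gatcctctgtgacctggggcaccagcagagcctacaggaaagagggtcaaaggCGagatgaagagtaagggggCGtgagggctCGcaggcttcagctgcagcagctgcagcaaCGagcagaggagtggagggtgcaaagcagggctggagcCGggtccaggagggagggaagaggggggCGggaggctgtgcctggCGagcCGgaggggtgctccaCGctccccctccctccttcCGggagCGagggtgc
Olig2: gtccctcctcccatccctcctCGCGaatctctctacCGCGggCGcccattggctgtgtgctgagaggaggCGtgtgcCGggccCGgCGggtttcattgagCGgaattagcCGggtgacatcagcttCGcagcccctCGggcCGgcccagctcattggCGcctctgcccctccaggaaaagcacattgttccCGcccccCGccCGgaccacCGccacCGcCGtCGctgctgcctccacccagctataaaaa
Cspg4: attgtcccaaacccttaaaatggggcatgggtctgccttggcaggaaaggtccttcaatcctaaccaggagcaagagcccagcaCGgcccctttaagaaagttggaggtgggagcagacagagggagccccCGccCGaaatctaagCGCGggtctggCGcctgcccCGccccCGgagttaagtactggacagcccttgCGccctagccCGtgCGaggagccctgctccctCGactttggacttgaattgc
Pdgfra: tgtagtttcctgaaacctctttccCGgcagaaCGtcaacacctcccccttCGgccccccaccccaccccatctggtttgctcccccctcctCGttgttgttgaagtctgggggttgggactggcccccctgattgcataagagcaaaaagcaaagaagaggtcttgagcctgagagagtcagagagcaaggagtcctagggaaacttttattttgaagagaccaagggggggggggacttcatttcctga

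These runs held 22 CG in Ptprz1, 11 in Lhfpl3, 22 in Olig2, 12 in Cspg4 and 4 in Pdgfra. The full 300 bases of the table add the first 50 transcribed bases. Over these the 10 starts of the list had a median of 14.5 CG and a GC content of 62.5%. The values were 7 and 52.7% over all 32851 promoters, which here and below include promoters of noncoding genes. The lowest in GC was Enpp6, at 40.3% with 4 CG. The GC box CCGCCC, a site for SP factors, was found on either strand in 7 of the 10 promoters and in 35.7% of all promoters. TATAAA was found in 1, that of Olig2, whose match began 8 bases before the start, and in 13.6% of all promoters.

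Letters bound by SOX and basic helix-loop-helix factors were found in some of these promoters. ACAATG, bound by SOX factors, was found in the promoters of Enpp6 and Olig2, at 219 and 68 bases before the start, and in 12.6% of all promoters. ACAAAG, the other SOX form, was found in none of the 10 and in 18.7% of all. CANNTG, the E-box, was found in 5 of 10 and in 72.3% of all promoters. Among its forms, CAGCTG was found in 2 of 10 against 16.3%, CAGATG in 1 against 17.2% and CATATG in none against 3.91%. Each was searched on both strands, the 3 forms are also counted among the E-boxes, and a match describes letters only.

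Each of the 10 windows held a peak, as did those of 81.5% of protein-coding genes. Peaks within 1 kb of an end of the gene span were present for 8 of 10 genes, against 69.2% of protein-coding genes. Peaks within 1 kb of a start were present for 8 of the 9 genes with a start in the table, against 68.3%. The 2 genes without a peak at an end were Pdgfra and Enpp6. The span of Enpp6 begins 47690 bp before its listed start, so that start is not near an end of the span. Enpp6 had a peak across that start, whereas the nearest peak to the start of Pdgfra began 1669 bp after it.

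The peaks of these genes were of ordinary strength for the list. Fold enrichment, the linear ratio of signal to background as the authors' caller gave it for each peak, was 3.11 at the median of the 185 peaks and 3.18 in the whole list. It ran from 1.75 to 10.52 in these peaks and reached 27.97 in the list. Of the 185 peaks, 39 (21.1%) had a fold at or above the upper quartile of the list, 4.24, and 4 lay in the top 5% of the list. None reached the top 1%, a level that 13.5% of protein-coding genes reached in their windows. The median width was 529 bp against 557 bp, with a range of 185 to 2081 bp. The −log10 q, the caller's measure of significance adjusted for multiple peaks, had a median of 12.4 against 13.1 and ran from 2.93 to 305.4.

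**Figure D1:**
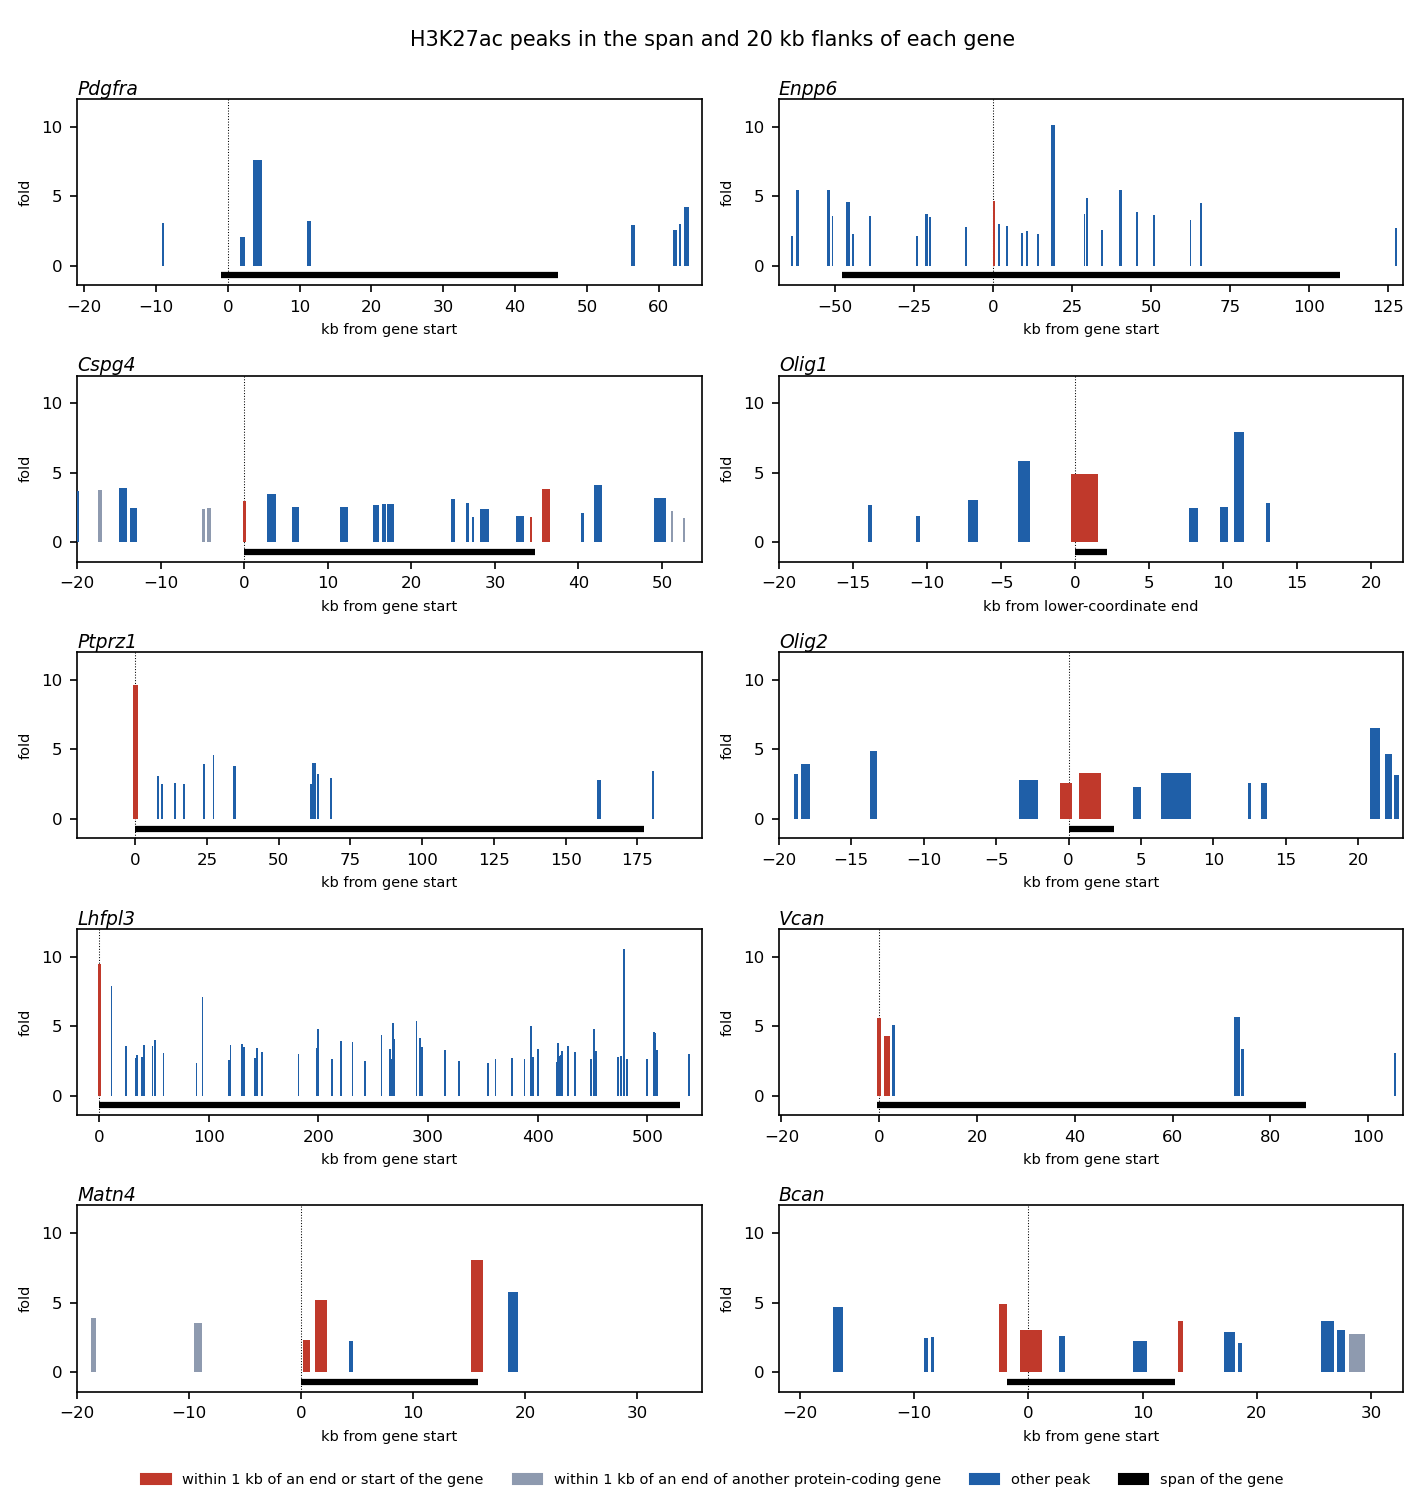
Peaks in the window of each gene, plotted by distance in kb from its start (from the lower-coordinate end for Olig1) with bar height as fold enrichment. Narrow bars are drawn at a minimum width, the start bar of Lhfpl3 wider still, so that they can be seen. The black line is the gene span, and colours mark peaks near an end or start of the gene, near an end of another protein-coding gene, or neither. The highest bar stands at the start of Ptprz1, inside Pdgfra, Enpp6 and Lhfpl3, and beyond the span in Olig1 and Olig2.

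Olig1 and Olig2, the lineage factors, lie side by side on chromosome 16 with 41091 bp between their spans. Olig2 (chr16:91225550-91228677) had 13 peaks covering 22.9% of its window, at percentile 98.7 of protein-coding genes, and peaks covered 57.1% of the span itself. Its start carried a peak of modest strength, chr16:91224941-91225796, 856 bp wide with a fold of 2.57 and a −log10 q of 31.96. A second, wider peak of 1539 bp, chr16:91226272-91227810, lay inside the gene with a fold of 3.32 and a −log10 q of 64.3. The widest peak of all 185, at 2081 bp, lay downstream at chr16:91231914-91233994, at the start of the long noncoding RNA gene Gm52261, with a fold of 3.31. Of higher fold than any of these was a peak of 720 bp, with a fold of 6.58. Its −log10 q of 50.0 was below the 64.3 inside the gene, and its summit lay 20946 bp downstream of the start, in the interval between both genes.

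Olig1 (chr16:91269769-91271939) had 9 peaks covering 14.2% of its window. A single peak of 1816 bp, chr16:91269518-91271333, covered 72.1% of the span and lay within 1 kb of both ends, with a fold of 4.94 and a −log10 q of 126.4. As at Olig2, peaks of higher fold lay outside the gene. One of 681 bp at chr16:91280513-91281193, on the higher-coordinate side, had a fold of 7.95 and a −log10 q of 147.4. Another of 790 bp at chr16:91265931-91266720, on the lower-coordinate side, had a fold of 5.84 and the highest −log10 q of this window, 191.9. The other 6 peaks had folds from 1.92 to 3.04. Between the spans of Olig2 and Olig1 lay 11 peaks covering 16.8% of the interval, and none fell in the 1091 bp that separate the windows.

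Pdgfra, the receptor for platelet-derived growth factor that defines these cells, had one of the sparser windows. Its 8 peaks covered 5.56% of the window (chr5:75131322-75218206), close to the middle of the range of protein-coding genes, whose median was 7.21%. The strongest peak, chr5:75155709-75156965, was 1257 bp wide with a fold of 7.62 and a −log10 q of 90.5, and its summit lay 3990 bp inside the gene. The 2 other peaks inside the gene had folds of 2.10 and 3.25, and both began after the start. Upstream there was a single peak, of 212 bp with a fold of 3.11, inside the long noncoding RNA gene Gm19583. Downstream 4 peaks had folds from 2.60 to 4.26, the last of them 743 bp wide and 63697 bp from the start.

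Ptprz1, a receptor-type tyrosine phosphatase that carries chondroitin sulfate chains, had its strongest peak at the start. The start peak, chr6:22874738-22876510, was 1773 bp wide with a fold of 9.63 and a −log10 q of 305.4, the highest −log10 q of the 185 peaks, and its summit lay 11 bp before the start. No other peak of the window reached a fold of 5. The 12 further peaks inside the gene, which spans 177.6 kb, had folds from 2.53 to 4.62, and 11 of the 12 summits lay within 67867 bp of the start. The next summit, that of the last of them, lay 93261 bp further on. Peaks covered 4.91% of the window.

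The proteoglycan genes Cspg4, Bcan and Vcan, with the matrix adaptor gene Matn4, did not share one layout. Cspg4, which encodes the NG2 proteoglycan of precursor cells and pericytes, had 25 peaks covering 21.4% of its window, at percentile 97.6 of protein-coding genes, with 33.4 peaks per 100 kb. Not one of them reached the upper quartile of fold, and the highest, 4.13, lay downstream at 42527 bp from the start. Its start peak, chr9:56864902-56865336, was 435 bp wide with a fold of 3.01 and a −log10 q of 22.8. The widest, 1651 bp with a fold of 3.69, lay upstream across the edge of the window. Inside the gene 13 peaks had folds from 1.82 to 3.51. Within 1 kb of an end of the adjacent genes Odf3l1 and Snx33 lay 5 of the 25 peaks. Only 16 of the 25 had a summit nearer to Cspg4 than to any other protein-coding gene, and these covered 14.4% of the window, so the gene of the others is uncertain.

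Bcan encodes brevican of the perineuronal matrix. Its 13 peaks covered 19.9% of the window, and the highest fold was 4.88, at a peak of 783 bp, chr3:88002178-88002960, just beyond the higher-coordinate end of the span. Across the start lay a peak of 1927 bp, chr3:87999160-88001086, with a fold of 3.02 and a −log10 q of 35.0. Only 3 of the 13 peaks overlapped the span. With peaks nearest to Bcan alone, 7 remained and covered 9.975% of the window, and with flanks of 50 kb the highest fold was 13.02. Of the 6 downstream peaks, 3 lay in Nes, the gene for the intermediate filament nestin.

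Vcan, which encodes versican, a large proteoglycan of the extracellular matrix, was the least covered of the 10 windows, at 3.78%. Its 6 peaks fell into small clusters. A trio at the start had folds of 5.59, 4.30 and 5.10 and widths of 834, 1324 and 492 bp, with summits 188, 1542 and 2978 bp inside the gene. A pair lay 72959 and 74408 bp from the start, with folds of 5.63 and 3.32. One more lay downstream with a fold of 3.03. The median fold of these 6 peaks, 4.70, was the highest of the 10 genes. The trio also overlapped the span of the long noncoding RNA gene Gm4117.

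Matn4, which encodes matrilin-4, a protein that links matrix components, had 7 peaks covering 9.48% of its window, of which the 3 nearest to Matn4 covered 4.23%. The strongest lay not at the start but at the other end of the gene, chr2:164388959-164390032, with a width of 1074 bp, a fold of 8.10 and a −log10 q of 201.0. The next, with a fold of 5.76, lay beyond that end. Near the starts lay a peak of 650 bp with a fold of 2.29 and one of 1107 bp with a fold of 5.21, of which the stronger also reached the start of Rbpjl. In all, 3 of the 7 peaks lay within 1 kb of an end of Rbpjl or Sdc4.

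Enpp6, a choline phosphodiesterase gene switched on as precursors begin to differentiate, had 27 peaks covering 7.97% of its window. The peak across the start, chr8:46986869-46987362, was 494 bp wide with a fold of 4.65 and a −log10 q of 22.9. The strongest peak, chr8:47005235-47006622, lay 19038 bp after the start and was 1388 bp wide, with a fold of 10.13 and a −log10 q of 93.7. Upstream of the annotated span 4 peaks had folds of 2.13, 5.45, 5.46 and 3.59. Beyond 65816 bp from the start the gene held no further peak, although its span runs to 109875 bp.

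Lhfpl3, a tetraspan membrane protein gene of the LHFPL family, is the longest of the 10 at 529.5 kb and had 63 peaks, 62 of them overlapping its span. They covered 6.25% of the window, near the median of protein-coding genes. The start peak, chr5:22745540-22747120, was 1581 bp wide with a fold of 9.47 and a −log10 q of 293.9, and it also lay in the long noncoding RNA gene A930003O13Rik. The highest fold of all 185 peaks, 10.52, belonged to an intragenic peak of 1145 bp at chr5:23224507-23225651, 479077 bp from the start, with a −log10 q of 186.3. Other strong peaks lay 11284 and 93961 bp from the start, with folds of 7.87 and 7.08. The median fold of the 63 peaks was 3.25, and the lowest was 2.19.

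**Figure D2:**
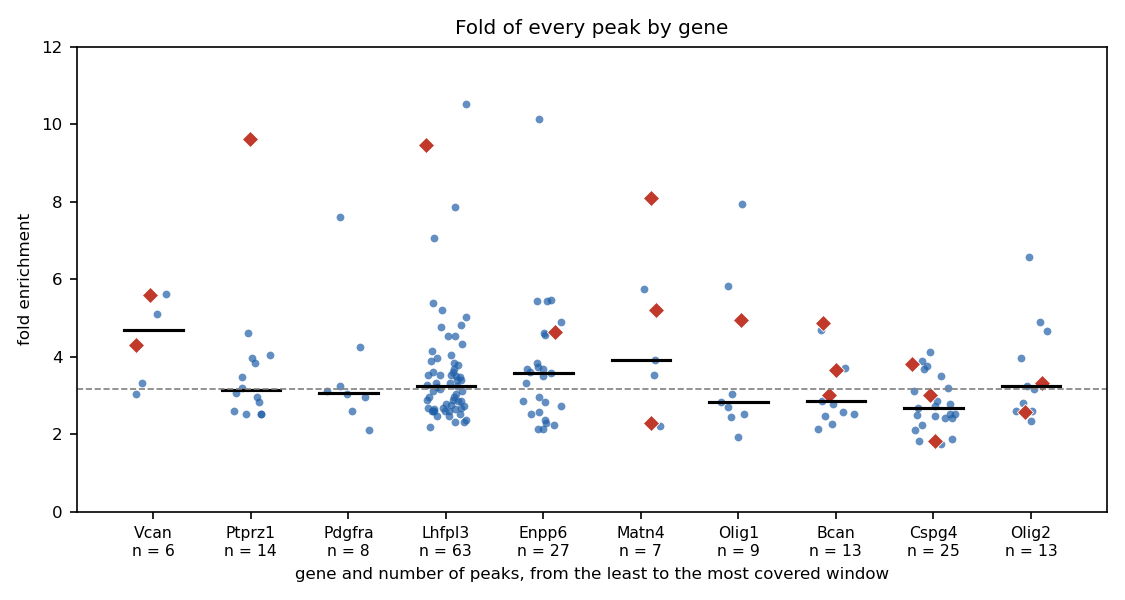
Fold enrichment of each peak by gene, ordered from the least to the most covered window. Red diamonds are peaks within 1 kb of an end or start of the gene, blue points are all others, black bars are medians and the dashed line is the median of the list, 3.18. The red diamonds of Ptprz1 and Lhfpl3 stand at 9.63 and 9.47, while those of Olig2, Cspg4 and Bcan stand at or below 4.88.

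Set beside promoters of like CG content, some start peaks were of middle fold and others were among the lowest in fold. Start peaks were not ranked by −log10 q in this way, and the starts they are set beside include those of noncoding genes. Among all starts in the table, a peak within 1 kb was present at 28.4% of 14310 starts with 0 to 5 CG in the 300 bases, and at 97.2% of 8148 starts with 21 or more. Where present, its fold had a median of 3.97 in the first class and 9.64 in the last. Ptprz1, with 29 CG, lay at percentile 49.9 of the marked starts of the last class, and Lhfpl3, with 12 CG, at percentile 55.4 of those with 11 to 20 CG. Olig2 and Bcan, with 25 and 24 CG and highest start folds of 3.32 and 3.02, lay at percentiles 2.10 and 1.21 of the last class. Cspg4, with 17 CG, lay at percentile 3.76 of its class, and Vcan at 22.3. The inner start of Matn4 lay at percentile 19.1 of that class, by the peak that also reaches the start of Rbpjl, and its outer start, with 9 CG and a fold of 2.29, at percentile 4.19 of the class with 6 to 10 CG. Enpp6, with 4 CG, lay at percentile 61.5 of the marked starts of its class. The starts with 5 CG or fewer in this list were those of Enpp6 and Pdgfra, of which only the first had a peak within 1 kb.

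Coverage and strength did not go together over these genes. The order of coverage ran from Vcan (3.78%) through Ptprz1, Pdgfra, Lhfpl3, Enpp6, Matn4 and Olig1 to Bcan (19.9%), Cspg4 (21.4%) and Olig2 (22.9%). With no replicate values, it cannot be said which neighbours in this order differ. More than 10% of the window was covered for 4 of the 10 genes, against 37.6% of protein-coding genes. The median over the list was 8.72%, against 7.21% over all. With peaks of upper-quartile fold alone the order turned, at 3.06% against 3.21%. The highest fold in the window had a median of 7.78 over the list and 8.85 over all genes. It was above 8.85 for Lhfpl3, Enpp6 and Ptprz1, the longest genes of the list, at 529.5, 157.6 and 177.6 kb. A maximum can rise with the length of the window. The median span was 40.83 kb over the list and 17.17 kb over all genes, and genes of like length were not compared. Spearman's rho between coverage and highest fold was -0.418 over the 10 genes and -0.0728 over the 17829 protein-coding genes with a peak, given as a description of genes that share 1 peak list.

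**Figure D3:**
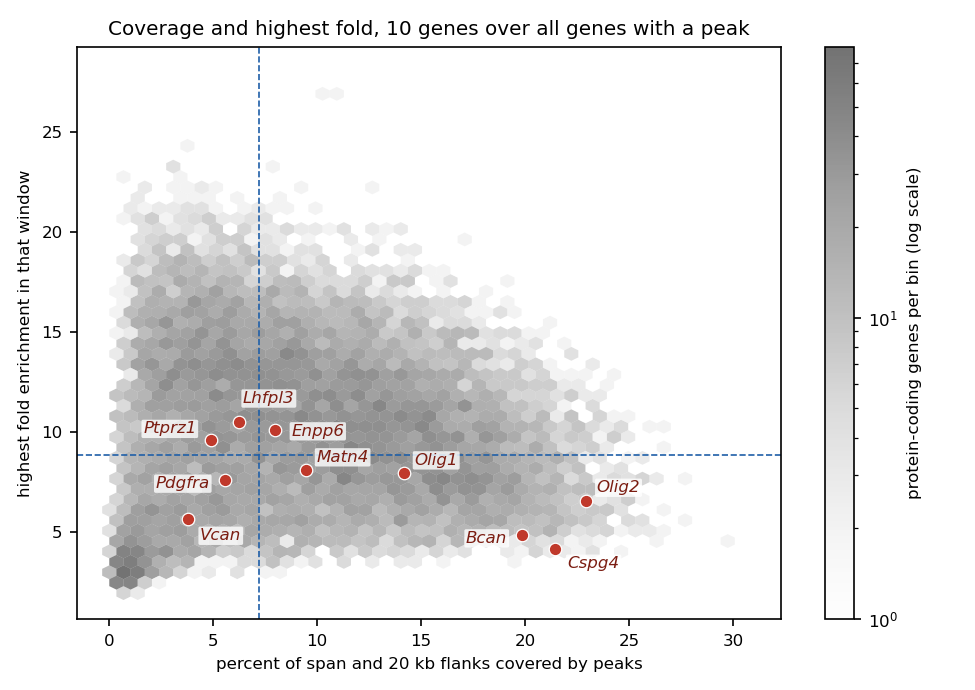
Percent of each window covered by peaks against the highest fold in it, for the 10 genes (red) over all protein-coding genes with a peak (grey bins, log colour scale). Dashed lines are the medians of all protein-coding genes, 7.21% and 8.85. Lhfpl3, Enpp6 and Ptprz1 lie above the horizontal line, and Cspg4, Bcan and Olig2 lie far right of the vertical line and below the horizontal one.

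The same fold carried unequal significance in different windows. Among the 41784 peaks of the list with a fold of 2.5 to 3, the median −log10 q was 7.70, and from the 5th to the 95th percentile it ran from 5.27 to 22.3. In that range of fold, 7 Cspg4 peaks had a median −log10 q of 27.5, 4 Olig2 peaks 21.96, 4 Bcan peaks 14.9 and 3 Olig1 peaks 12.4. The values were 6.73 for 6 Enpp6 peaks, 6.59 for 20 Lhfpl3 peaks, 6.54 for 2 Pdgfra peaks and 5.17 for 6 Ptprz1 peaks. At like folds, then, the peaks of Cspg4 and Olig2 had higher −log10 q than those of Ptprz1 and Lhfpl3. In that range of fold the median width was 679 bp in Cspg4, 666.5 bp in Olig2 and 694.5 bp in Bcan, against 675 bp in Ptprz1, 375.5 bp in Lhfpl3 and 375 bp in Enpp6. It was 313 bp in Olig1 and 575 bp in Pdgfra, beside 445 bp over the list. Width thus differed along with −log10 q for Lhfpl3 and Enpp6 but not for Ptprz1, Olig1 or Pdgfra, and its part was not tested. By the highest −log10 q in the window, Ptprz1 (305.4) and Lhfpl3 (293.9) led, and Cspg4 (43.5) came last.

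**Figure D4:**
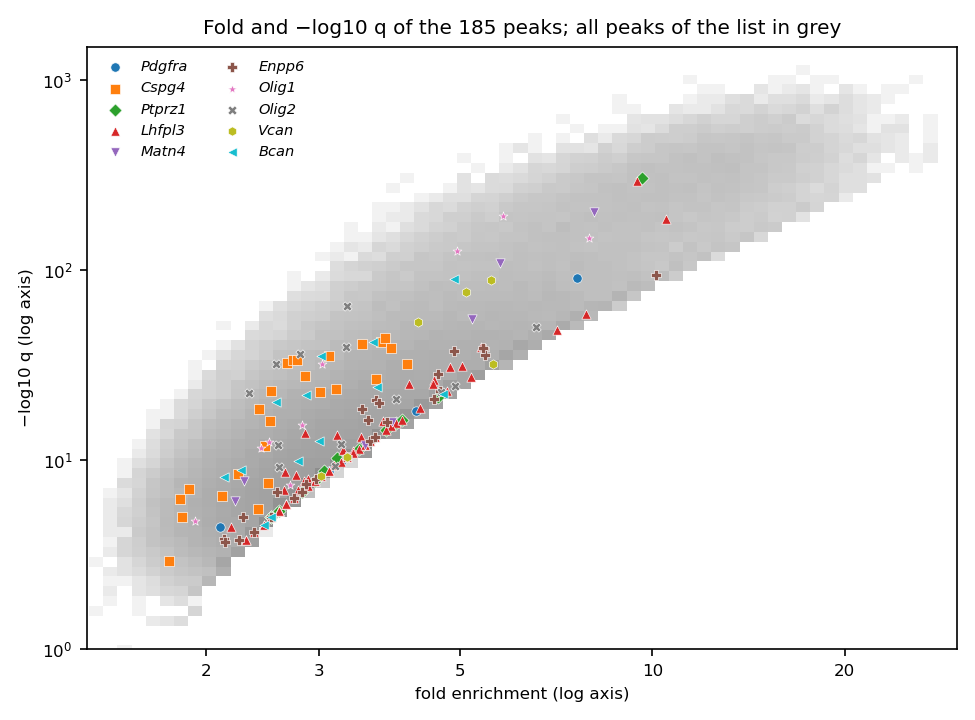
Fold enrichment against −log10 q of the 185 peaks, both on log axes, with a symbol for each gene and all peaks of the list as grey bins. Most peaks of Ptprz1, Lhfpl3 and Enpp6 with folds below 5 run along or near the lower edge of the grey field, and many peaks of Cspg4 and Olig2 lie higher at the same fold.

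Position relative to the start separated the peaks little once the start was left. For the 9 genes with a start, 8 peaks had a summit under 1 kb from it, 1 in each of 8 genes, with a median fold of 3.83 and a range of 2.29 to 9.63. At 1 to 10 kb there were 26 peaks with a median fold of 2.85, at 10 to 50 kb 63 peaks with 3.25, and beyond 50 kb 79 peaks with 3.20. Median widths in these classes were 845, 546, 578 and 473 bp. Over all 185 peaks fold and width had a Spearman's rho of 0.411, beside 0.503 over the whole list. The window edge itself was arbitrary: just outside that of Bcan, at 6373 bp, lay a peak with a fold of 13.02 and just inside it one with 2.78, and for Olig2 these folds were 8.63 and 3.25. The distance is measured from the outermost start in the table, and 63 of the peaks belong to Lhfpl3.

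Most genes of the same pathways were marked at their ends. Of 50 genes in 5 related lists, 49 were marked within 1 kb of either end, the exception being Bmp4. Over all protein-coding genes that share was 69.2%, the value against which the end peak counts of each list that follows are set. Coverage exceeded 10% for 36 of the 50, and its median was 13.2%, with a median highest fold of 7.90. Over all protein-coding genes 37.6% exceeded 10%, the median coverage was 7.21% and the median highest fold was 8.85, above that of the 50 genes. Some windows of neighbouring genes in these lists overlap, as for Gpr17 and Lims2 or Ncan and Hapln4, so a peak can count for several genes. Among 5 genes of platelet-derived growth factor signalling, all had an end peak. The ligand gene Pdgfa was covered over 16.6% of its window, and Pdgfd over 0.857%. Pdgfc had the highest fold there, 10.7, and Pdgfrb the lowest, 4.70.

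Partners of the proteoglycans and of Ptprz1 were also marked. All 10 genes of the perineuronal matrix had an end peak, beside 69.2% of protein-coding genes, with a median coverage of 12.2%. Ncan, which encodes neurocan, was covered over 20.8% and Hapln1, a link protein gene, over 4.44%, although the Hapln1 window held the highest fold of that list, 12.4. Hapln4 had the lowest highest fold, 5.19. Of 5 genes for Ptprz1 ligands and partners, all had an end peak, with a median coverage of 13.4%. The window of the ligand gene Mdk was covered over 22.8% with a highest fold of 4.59, and that of the ligand gene Ptn over 13.4% with 11.4. Only 1 of the 10 Mdk peaks overlapped the span of the gene, and the highest fold in the span of Ptn was 7.13. Cntn1, a contactin gene, had the lowest coverage, 7.89%.

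Transcription factor genes of the lineage had the highest median coverage of these lists, 15.7% over 15 genes, and all had an end peak, beside 69.2% of protein-coding genes. Sox8 (24.9%) and Sox10 (24.7%) were covered over more of their windows than any of the 10 precursor genes, and Sox6 (3.83%) was at the other end. Only 3 of 13 peaks overlapped the span of Sox8 and 3 of 11 that of Sox10, so the gene of the others is uncertain. The highest fold was 10.5, in Sox5, and the lowest highest fold 4.89, in Sox9. Among 15 further genes of precursors and committed precursors 14 had an end peak and the median coverage was 14.5%. Fyn, a kinase gene of myelination, was covered over 23.05% and Luzp2 over 1.57%. Itpr2 had the highest fold, 13.1, and Tmem100 the lowest, 4.15.

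Markers of other cell types give the setting in which these bulk values stand. All 10 markers of mature oligodendrocytes had an end peak, beside 69.2% of protein-coding genes, with a median coverage of 11.8%, from 8.33% for Mog to 22.95% for Mbp. Astrocyte markers had an end peak in 6 of 7 cases (not Aqp4) and a median coverage of 13.2%, neuronal markers in 5 of 5 with 8.56%, and microglial markers in 4 of 5 (not P2ry12) with 11.54%. By median highest fold the order was another, with 11.2 for neuronal, 8.41 for astrocyte, 6.61 for mature oligodendrocyte and 5.28 for microglial markers. That value was 7.78 over the 10 precursor genes and 8.85 over all protein-coding genes. Mural and fibroblast markers, which bear on Pdgfra, Cspg4 and Vcan, had an end peak in 4 of 8 cases and a median coverage of 1.06%. Their median highest fold was 5.02. The 4 with an end peak were the pericyte genes Pdgfrb and Kcnj8, with end folds of 4.11 and 5.35, and the collagen genes Col1a1 and Col1a2, with 3.47 and 7.26. Pdgfrb was covered over 12.8%, Col1a1 over 14.7%, Col1a2 over 7.42% and Kcnj8 over 1.15%. The pericyte genes Rgs5 and Abcc9 had no end peak, with coverage of 0.976% and 0.348%, and the fibroblast genes Dcn and Lum had no peak in their windows. The only peak in the Abcc9 window lay outside its span, with the same fold, 5.35, as the only peak of the adjacent Kcnj8. The part of each cell type in the peaks of the precursor genes was not tested.

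**Figure D5:**
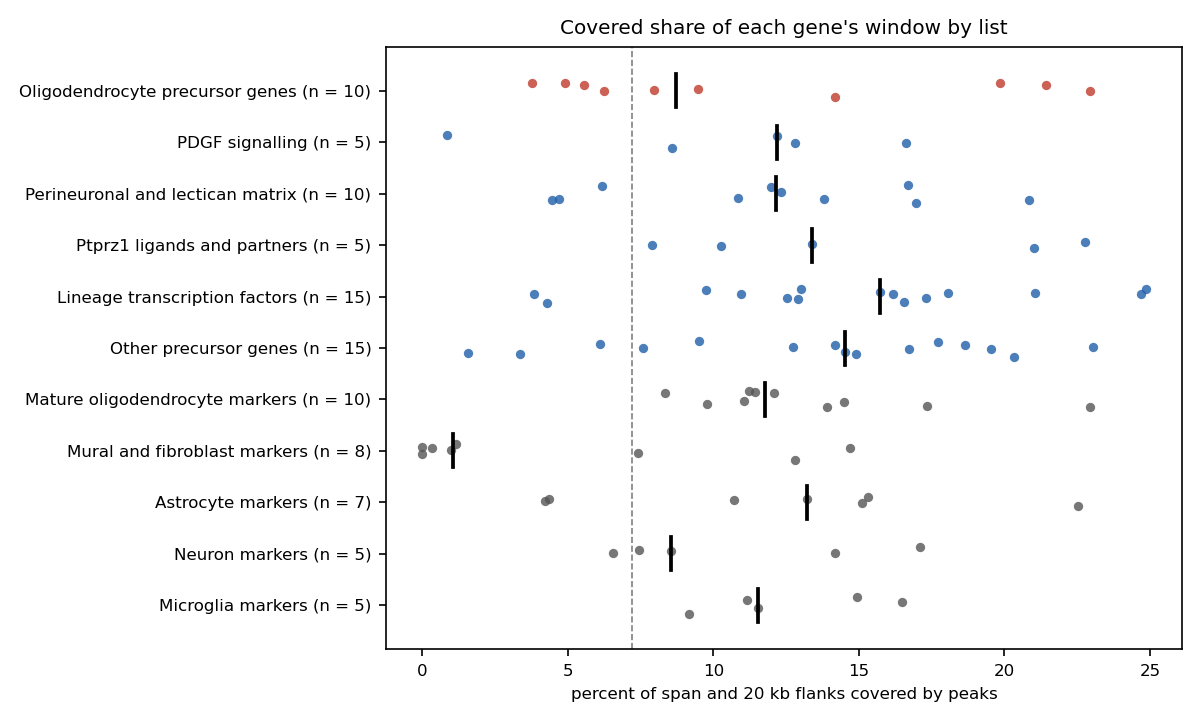
Percent of the window covered by peaks for each gene, by list, with black bars as medians and the dashed line as the median of all protein-coding genes, 7.21%. The 10 precursor genes (red) run from 3.78% to 22.9%, related lists (blue) have medians from 12.2% to 15.7%, and among cell type markers (grey) the mural and fibroblast list has the lowest median, 1.06%.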

How the data were processed

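Bulk H3K27ac CUT&Tag of 3 hypothalamus samples was analysed from its one deposited peak list. The file has no header, so its columns were taken as those of a narrowPeak file. The fold is a linear ratio and the significance a −log10 q, both deposited by the authors for each peak. MACS2, BWA 0.7.17, cutadapt 4.5 and build mm10 appear in the submitters' processing notes, without roles. How replicates were combined, and the caller's background and settings, are not stated there.

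Peaks were matched to gene spans by an overlap of at least 1 bp with Python 3.11.15, numpy 2.4.6 and pandas 2.3.3. Starts and sequences came from RefSeq tables of GRCm38.p6, and interval counts were tested on simulated data. Percentiles rank a gene among protein-coding genes. No test was run. The rule named all 10 genes, their strongest, widest and start or end peaks, and in each related list the extremes of highest fold and genes without a peak. Genes named for coverage, and the cell type markers, were chosen after their values were seen. The genes and lists were chosen with earlier results of these data known. Alternatives were other windows, stricter peak sets, summit overlap and peaks nearest to the gene.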

Additional observations from a re-analysis of the deposited data

How the results depend on the processing

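No paired analysis was possible because one peak list stands for all 3 bulk samples and carries no value per replicate, so no replicate could be left out either. The number of peaks in the 10 windows, 185, was 88 with peaks at or above the median −log10 q of the list and 39 with peaks of upper-quartile fold, where Cspg4 had none. It ran from 128 to 253 over the other 5 alternatives.

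The median covered percent, 8.72, was 5.88 with the stricter −log10 q and 3.06 with the stricter fold, where it lay below the 3.21 of all protein-coding genes rather than above. It was 12.75 in the span alone (7.295 over all genes), 10.7 with flanks of 10 kb (7.50) and 7.60 with flanks of 50 kb (7.08). With only peaks nearest to the gene it was 7.11, where Bcan stood at 9.975% and Matn4 at 4.23%. No value over all genes was computed for that setting. The median highest fold, 7.78, was 6.625 in the span alone and 9.13 with flanks of 50 kb, against 6.86 and 10.55 over all genes. With flanks of 50 kb Cspg4 and Bcan reached 12.2 and 13.02. The median was unchanged under the 5 others. A peak at an end was found for 6 of the 10 genes with peaks of upper-quartile fold, against 58.6% of protein-coding genes. Within 2500 bp of an end it was found for 9, against 73.6%. With the stricter −log10 q, within 500 bp or by summit it was found for 8, against 64.4%, 65.9% and 65.7%. The last alternative, a peak at the start, was met by 8 of the 9 genes with a start, against 68.3%. Depth is unknown, and absence of a peak refers to this list alone.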
